A study of Mus musculus with 12 samples.

Results

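Among the places where BMAL1 was called in mouse adult fibroblasts (MAFs), 1137 regions held an AP-1 site and no canonical E-box. They were chosen by their sequence and by how often they were called: peaks from 6 BMAL1-ChIP-seq libraries that shared 1 bp or more were joined, which left 16818 regions, of which 7452 were called in 2 or more libraries (recurrent regions), and the chosen regions held between start and end at least 1 heptamer TGACTCA or TGAGTCA and no CACGTG. They made up 15.3% of the recurrent regions. Of the other recurrent regions, 2019 held an E-box and no AP-1 site, 524 held both and 3772 held neither. The chosen regions are called AP-1 regions here, and the presence of the heptamer, the absence of CACGTG and the calls in at least 2 libraries are not findings.

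The study asked where BMAL1 binds in cellular senescence. Primary MAFs, grown from the ears of C57BL/6 mice, were sham irradiated (control) or given 20 Gy of X-rays (senescent). The irradiated cells were kept in culture for further weeks to become senescent. After that, all cells, control and senescent, received 100 nM dexamethasone for 2 h, a glucocorticoid pulse that sets the clocks of a culture to a common phase. They were collected 12 h later. Of the 12 libraries of the series, 6 were BMAL1-ChIP-seq libraries (n = 3 control, n = 3 senescent) and the 6 input libraries were not analysed here. The replicates are numbered in the labels, and whether they came from separate animals or cultures is not stated, so the spread between them may be technical. Both groups are 1 cell type in culture at 1 time after synchronization, and the peak lists hold no expression values against which the cell type could be checked.

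BMAL1 is a transcription factor of the circadian clock that binds DNA as a pair with CLOCK, and the palindrome CACGTG, the canonical E-box, is their best known site. AP-1 is a family of dimers of JUN, FOS, ATF and MAF proteins that bind the heptamer searched here, also called the TRE. AP-1 acts mostly at enhancers away from promoters, responds to stress and growth signals, and is known in fibroblasts for its part in matrix and cytokine gene expression. CACATG, read CATGTG on the other strand, is a weaker variant of the E-box that other basic helix-loop-helix factors are also known to bind.

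Read numbers are not part of the peak lists, so depth is unknown, and a peak missing from a list is a peak not called. The lists held between 2794 and 10601 peaks, and control replicate 3 and senescent replicate 2 had the longest lists. Peaks were therefore compared by their percent rank, the place of a peak in its own list ordered from the best score, as a percent of the list (0 is best). P-values come from exact tests over libraries, two-sided: permutation of the group labels for control against senescent (the smallest possible p is 0.1), and sign changes of the 6 differences within libraries for one class of regions against another (the smallest possible p is 0.031). Because the 6 lists share regions, such a p describes how consistent the libraries were.

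The sequences around the AP-1 sites of the best-ranked regions are shown first, because the motif is what the regions have in common. Each line gives the site closest to the centre of the best-ranked peak with 20 bases on each side, on the plus strand of GRCm38, named by the nearest protein-coding gene, and capitals mark AP-1 heptamers. The first 3 were called in all 6 libraries, the next 3 in all 3 senescent and 0 control libraries, and the last 3 in all 3 control and 0 senescent libraries.
AI429214, chr8:37049448-37049494: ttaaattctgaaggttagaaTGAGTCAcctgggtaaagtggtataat
Slc24a3, chr2:145214175-145214221: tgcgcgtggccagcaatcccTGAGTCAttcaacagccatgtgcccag
Klf10, chr15:38299057-38299103: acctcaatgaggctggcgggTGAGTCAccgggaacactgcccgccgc
Gm11077, chr6:140750562-140750608: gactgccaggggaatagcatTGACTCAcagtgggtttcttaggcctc
Lpin2, chr17:71142300-71142346: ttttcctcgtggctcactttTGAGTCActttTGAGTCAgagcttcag
Rab3gap2, chr1:185193670-185193716: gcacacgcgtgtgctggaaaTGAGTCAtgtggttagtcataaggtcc
Klf5, chr14:99631279-99631325: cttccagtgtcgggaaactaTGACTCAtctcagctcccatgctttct
Acta2, chr19:34265836-34265882: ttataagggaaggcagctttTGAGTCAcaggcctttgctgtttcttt
Prps1l1, chr12:34875171-34875217: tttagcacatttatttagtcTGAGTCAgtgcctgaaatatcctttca
The Lpin2 window holds a pair of heptamers on the same strand. In the Rab3gap2 window the heptamer runs into CATGTG, so that both motifs share bases.

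Such fused sites recurred among the AP-1 regions. CACATG shared at least 1 base with 50 of the 1371 heptamers in the AP-1 regions (3.65%, 95% Wilson interval 2.78 to 4.78) and with 15 of 896 heptamers found 1000 to 3000 bp outside them (1.674%, 1.02 to 2.74). Of the 50, 6 were copies in the tandem repeat at P2rx7, and without that region the count was 44 of 1365 (3.22%, 2.41 to 4.30), an interval that overlaps that of the surroundings. These sites were looked for after the values were seen, and the intervals cover counting error only. Examples of both orders of the motifs are given with AP-1 heptamer and E-box variant in capitals.
Daam1, AP-1 heptamer at chr12:71898469-71898475: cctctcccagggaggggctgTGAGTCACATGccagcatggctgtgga
Fbxo7, AP-1 heptamer at chr10:86100549-86100555: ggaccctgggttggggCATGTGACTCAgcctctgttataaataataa
Hmga2, AP-1 heptamer at chr10:120616718-120616724: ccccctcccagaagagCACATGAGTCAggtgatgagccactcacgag

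The AP-1 region with the most heptamers lay in an intron of P2rx7, the gene of an ATP-gated ion channel, at chr5:122647495-122648559. It held 6 AP-1 heptamers and 23 copies of CACATG within 698 bp, in a tandem repeat in which successive heptamers were 55 to 83 bp apart. A stretch of 120 bases at its centre is shown with both motifs in capitals.
P2rx7, chr5:122648031-122648150: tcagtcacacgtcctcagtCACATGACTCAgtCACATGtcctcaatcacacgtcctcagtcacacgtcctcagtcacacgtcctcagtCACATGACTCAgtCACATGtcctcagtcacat
Its percent ranks were 6.32, 2.77 and 3.01 in senescent replicates 1, 2 and 3 and 71.98 in control replicate 3, and it was not called in the other control libraries. The region was thus among the best-ranked peaks of every senescent list and in the lower part of the only control list that had it. Reads from near-identical repeat units can be placed wrongly within such an array. A region 18601 bp from the start of Usp7, a deubiquitinase, held 5 heptamers and was called in all 3 senescent and 0 control libraries at percent ranks of 85.64, 8.63 and 23.94. A region 6331 bp upstream of Ahnak, a large scaffold protein, also held 5 and was called in 5 libraries at ranks of 20.59 to 80.49. Most AP-1 regions were simpler, with 1 heptamer in 942, 2 in 166, 3 in 23 and more than 3 in the rest.

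The heptamers of the AP-1 regions had other neighbours than those around them. A T stood directly before the heptamer, read on either strand, at 10.3% of the sites in AP-1 regions (283 of 2742 readings) and at 18.8% of those 1000 to 3000 bp away (336 of 1792). In each library, sites with no T before and no A after made up 80.3 to 82.9% of the sites in AP-1 peaks and 63.3 to 80.0% of the sites in windows of the same width 2000 bp to each side. The share was 12.0 percentage points higher in the peaks (SD 6.07, n = 6 libraries, higher in 6 of 6), with an exact p of 0.031. The surrounding windows held 30 to 107 sites a library, so each of their shares is coarse, and this measure was chosen after the values were seen. For the narrower pattern of A before and T after, the shares were 5.502% ± 1.17 (SD, n = 6) in the peaks and 4.10% ± 1.69 around them, a difference of 1.40 points that was smaller than its SD of 2.00 (exact p = 0.1875). Sites in the AP-1 regions also lay less often in repeats: 53 of 1371 heptamers (3.87%) were in soft-masked sequence, against 116 of 896 (12.9%) in the surroundings. The authors kept only read pairs with at least 1 end placed uniquely, a filter that the surroundings did not have to pass. The part of that filter in the difference was not tested, and no other class of regions was measured.

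AP-1 sites were more frequent in the recurrent regions as a whole than beside them. An AP-1 heptamer was present in 1661 of the 7452 recurrent regions (22.3%, 95% Wilson interval 21.4 to 23.2) and in 7.35% of windows of the same width placed 2000 bp from their ends (6.94 to 7.78, 14904 windows). A heptamer without an E-box was present in 15.3% of the regions and 6.66% of the windows.

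Next, the AP-1 regions were compared between control and senescent libraries. They made up 12.8, 13.8 and 14.3% of the recurrent regions called in control replicates 1, 2 and 3 and 12.9, 14.2 and 14.4% of those called in senescent replicates 1, 2 and 3. The ranges of the groups almost coincided. Control libraries averaged 13.6% ± 0.752 and senescent libraries 13.9% ± 0.813 (SD, n = 3), a difference of 0.264 points that was below the SD of either group (exact permutation p = 0.6). With all lists cut to the length of the shortest, the difference turned to -0.974 points (exact permutation p = 0.1).
Regions with an E-box and no AP-1 site made up 33.8% of the recurrent regions called in 2 or 3 senescent and 0 control libraries and 10.1% of those called in 2 or 3 control and 0 senescent libraries, and a region with an E-box cannot be an AP-1 region. Among the recurrent regions without an E-box alone, AP-1 regions made up 23.0, 21.8 and 20.8% in the control libraries and 26.6, 23.3 and 26.9% in the senescent libraries. Every senescent library was above every control library, with means of 21.9% ± 1.08 and 25.6% ± 2.00 (SD, n = 3). The difference of 3.69 points had an exact permutation p of 0.1, the smallest that 3 against 3 libraries allow, or 0.192 after Benjamini-Hochberg adjustment over 23 values compared between the groups. This denominator was added after the values were seen. Over 11 other settings the difference lay between 2.32 and 4.66 points, with the lowest value without senescent replicate 3 (exact permutation p = 0.3).

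**Figure D1:**
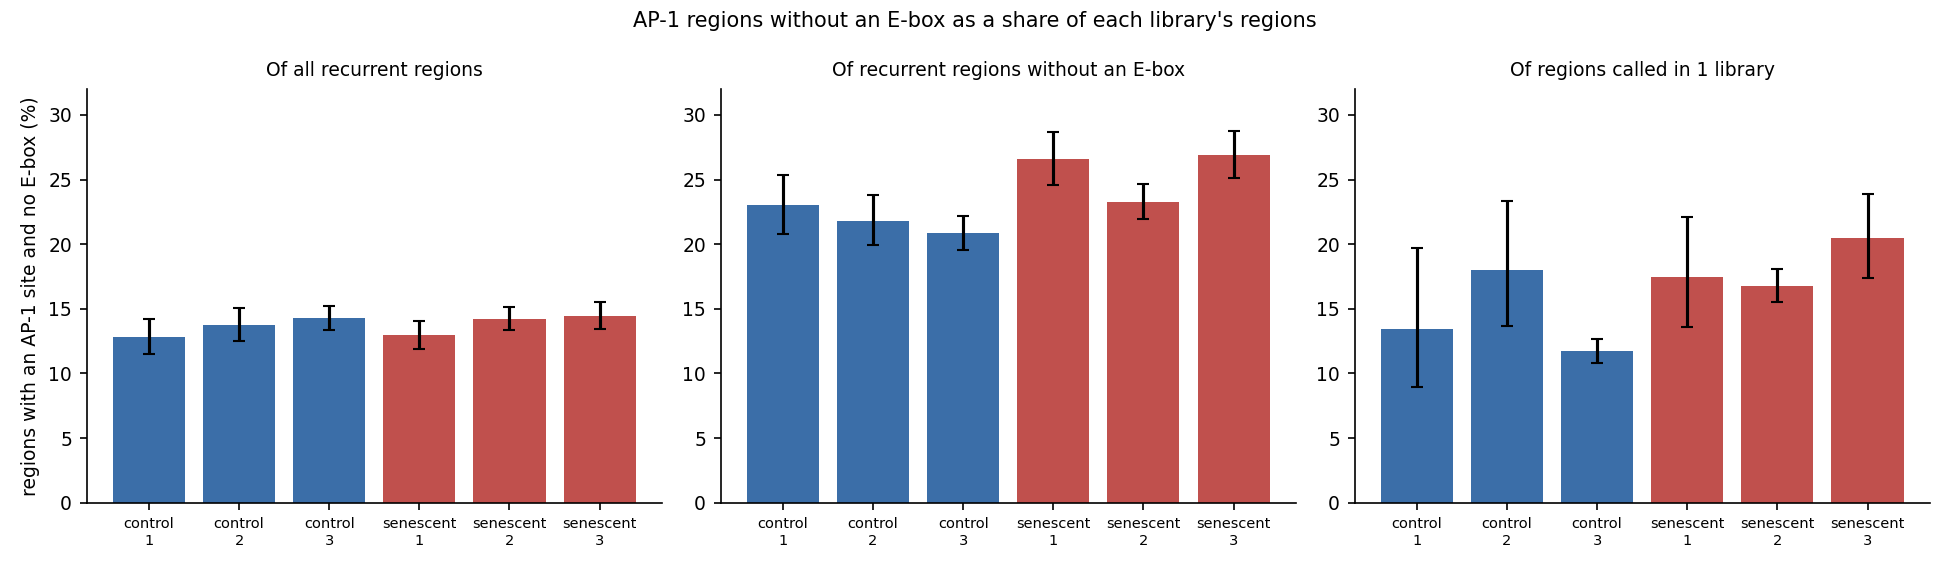
Each bar is 1 library and gives the share of its regions (%) that held an AP-1 site and no E-box, of all recurrent regions (left), of recurrent regions without an E-box (middle) and of regions called in that library alone (right). Error bars are 95% Wilson intervals. In the middle panel the senescent bars (23.3 to 26.9%) lie above the control bars (20.8 to 23.0%), while in the left panel the groups overlap.

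Regions called in 1 library alone lie outside the rule and repeat the comparison on other regions. Regions with an AP-1 site and no E-box made up 13.5, 17.99 and 11.7% of such regions in the control libraries and 17.4, 16.8 and 20.5% in the senescent libraries. The groups overlapped, and the difference of 3.83 points had an exact permutation p of 0.3 and was -0.0149 points with lists of equal length. Among single-library regions without an E-box the shares were 14.8, 18.8 and 12.2% in control and 24.7, 19.03 and 24.3% in senescent libraries. Here too every senescent library was above every control library (difference 7.42 points, exact permutation p = 0.1).

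By their calls, 295 AP-1 regions were senescent-only (called in 2 or 3 senescent and 0 control libraries), 180 were control-only (2 or 3 control and 0 senescent) and 94 were called in all 6. These are 25.9%, 15.8% and 8.27% of the AP-1 regions, against 21.3%, 13.2% and 14.8% of all recurrent regions. Of the regions with neither motif 8.78% were called in all 6, and of those with an E-box and no AP-1 site 26.2%. With all lists cut to the same length the excess of senescent-only over control-only AP-1 regions was gone, with 129 against 133. The counts over all recurrent regions were not computed at that length. Whether this loss is particular to AP-1 regions is therefore not known. In all 3 senescent and 0 control libraries were 113 (9.94%, against 8.43% of all recurrent regions), and in all 3 control and 0 senescent libraries 43 (3.78%, against 3.56%). AP-1 regions were 18.6% of the senescent-only regions (16.7 to 20.6, 95% Wilson interval) and 18.3% of the control-only regions (15.97 to 20.8), shares that lay within each other's intervals. Of the regions of each set without an E-box they were 33.0% (30.0 to 36.1) and 20.8% (18.2 to 23.6). Regions of 1 set are not replicates, and these shares carry no test.
The most frequent pattern of calls was control replicate 3 with senescent replicate 2, the libraries with the longest lists, which alone shared 135 AP-1 regions. The counts of these sets depend on single libraries. With 1 library of a group left out, a region must be called in both that remain, which favours a lower count. Without control replicate 3 the control-only count was 43 and without control replicate 2 it was 87. Without senescent replicate 2 the senescent-only count was 136 and without senescent replicate 3 it was 164. Leaving out a library of the other group can raise a count. The senescent-only count was 437 without control replicate 3, and the control-only count 244 without senescent replicate 2. Counts over all recurrent regions were not computed with libraries left out. These changes are thus not shown to be particular to AP-1 regions.

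In every list the AP-1 regions ranked below the regions with an E-box. Their median percent rank was 54.8, 55.5 and 35.8 in control replicates 1, 2 and 3 and 56.0, 43.2 and 55.4 in senescent replicates 1, 2 and 3. Regions with an E-box and no AP-1 site had medians of 33.7, 33.1 and 22.5 in control and 35.6, 20.7 and 32.3 in senescent libraries. In each of the 6 libraries the AP-1 regions ranked worse than the E-box regions, by 13.3 to 23.1 points of the list. The mean difference was 20.5 points (SD 3.66, n = 6, exact p = 0.031, 0.0405 after adjustment over 35 comparisons of classes). Regions with both motifs ranked best of the 4 classes in each library, with medians of 18.1 to 31.7. Against regions with neither motif the AP-1 regions differed by only -0.307 points (SD 1.81), below their median in 4 of 6 libraries and above it in 2 (exact p = 0.688). Between control and senescent libraries the medians of the AP-1 regions overlapped, with means of 48.7 ± 11.2 and 51.5 ± 7.23 (SD, n = 3, exact permutation p = 0.6).

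**Figure D2:**
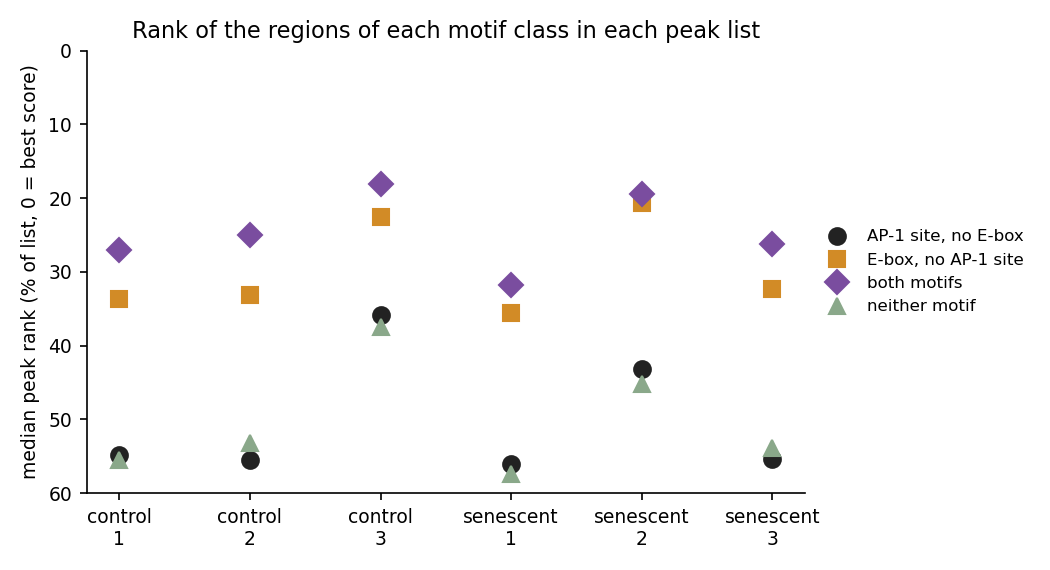
Each point is the median percent rank (vertical axis, % of the list, 0 is the best score at the top) of the recurrent regions of 1 motif class in 1 library (horizontal axis). In each library AP-1 regions without an E-box (35.8 to 56.0) lie beside regions with neither motif and below both classes with an E-box.

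The same order held at the top of the lists. In the best-ranked 20% of a list lay 17.4% of the AP-1 regions on average (29.3 and 21.3% in the longest lists, control replicate 3 and senescent replicate 2, and 11.4 to 14.5% in the others), 37.4% of the E-box regions and 17.1% of the regions with neither motif. AP-1 regions called in more libraries ranked better, an order that calling peaks by score favours and that is not a finding. Those called in 2 libraries (518 regions, just inside the rule) had a median of 59.0 and those called in 6 a median of 25.6. The 1357 regions with an AP-1 site and no E-box called in 1 library, just outside the rule, had a median of 65.7. Of these, 548 came from control replicate 3, the longest list. The median width of an AP-1 region was 342 bp, against 424 bp for regions with an E-box and no AP-1 site and 318 bp for regions with neither motif. A wider region is more likely to hold either motif, so width is given without a test.

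Most AP-1 regions had a heptamer within 100 bp of the peak centre, a share that the choice of the regions favours. Median AP-1 peak widths averaged 219 bp in control and 237 bp in senescent libraries. A window of 100 bp to each side thus covers most of a typical peak. In 866 of the 1137 regions (76.2%) a heptamer lay within 100 bp of the centre of the best-ranked peak, and in 11 (0.967%) the nearest lay over 500 bp away, as in the 4211 bp region beside Ccn2. Per library, the share of AP-1 peaks with a site within 100 bp was 63.8, 63.6 and 70.2% in control and 73.0, 73.9 and 71.6% in senescent libraries, higher in each senescent than in each control library (difference 6.94 points, exact permutation p = 0.1). In peaks with 1 heptamer, its median distance from the centre was 0.420 of the way to the edge (SD 0.0427, n = 6). A rearranged heptamer with the same bases, GTACTAC or GTAGTAC, lay at 0.452 of the way in E-box-free regions, and the difference of -0.0317 was smaller than its SD of 0.119 (exact p = 0.594). That comparison is coarse, since only 14 to 50 peaks a library held a single rearranged copy. It depended on the setting: the sign turned with peaks above the median score, equal list lengths, regions called in 3 or more libraries and without control replicate 3, and in bp the mean difference was -20.8 bp (exact p = 0.031). Against the second rearranged heptamer, ATGCCAT or ATGGCAT, with 41 to 104 peaks a library, the difference was -0.0141 (exact p = 0.594). Relative to peak width, E-boxes of the E-box regions lay closer in, at 0.313 of the way. The difference was 0.108, found in 6 of 6 libraries (exact p = 0.031). In bp the control libraries did not show it. Their medians in replicates 1, 2 and 3 were 41.5, 44 and 51 bp for AP-1 sites and 39.5, 44.5 and 51.5 bp for E-boxes. Median peak widths there were 182, 202 and 273 bp for AP-1 peaks and 242, 258 and 310.5 bp for E-box peaks.

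The AP-1 regions were mostly distal. Within 1000 bp of a protein-coding start site lay 9.06, 11.1 and 11.9% of the AP-1 peaks of control replicates 1, 2 and 3 and 12.3, 13.8 and 12.3% of those of senescent replicates 1, 2 and 3. For all other recurrent regions the shares averaged 44.0%, so the AP-1 regions lay 32.2 points lower (SD 3.81, lower in 6 of 6 libraries, exact p = 0.031, 0.0405 after adjustment). Their median distance to a start site averaged 21.7 kb over the 6 libraries, against 0.969 kb for E-box regions, 4.11 kb for regions with neither motif and 16.1 kb for regions with both. Promoter shares were higher in each senescent than in each control library (means 12.8% ± 0.874 and 10.7% ± 1.46, exact permutation p = 0.1), and 3 of the 180 control-only regions (1.667%) were at a promoter, against 33 of the 295 senescent-only regions (11.2%). AP-1 regions over 50 kb from a start site were 31.8% ± 2.45 in control and 25.7% ± 1.25 in senescent libraries, again without overlap. Regions with neither motif split the same way and further, with 31.1, 34.6 and 45.7% at promoters in control and 47.0, 54.8 and 48.4% in senescent libraries, and 23.5, 21.3 and 17.5% against 12.9, 11.1 and 12.9% over 50 kb from a start site. By the annotation, 516 AP-1 regions (45.4%) were centred in introns of protein-coding genes, 56 (4.93%) in exons and 565 (49.7%) between genes, against 32.9, 11.6 and 55.5% of the other recurrent regions. The GC content of the 200 bp around the peak centre had a median of 49.3% in AP-1 peaks and 56.9% in E-box peaks, lower in 6 of 6 libraries (exact p = 0.031). Within 10 kb of an AP-1 region lay a recurrent E-box region in 13.9% of cases, against 14.6% for regions with neither motif, a difference within the spread of the libraries (exact p = 0.281).

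Many AP-1 regions held the E-box variant CACATG. It was present anywhere in 497 of the 1137 regions (43.7%). That share grows with region width and is given without a background. Within 100 bp of the peak centre it was present in 30.7, 28.8 and 24.8% of the AP-1 peaks of control replicates 1, 2 and 3 and in 45.1, 33.3 and 38.6% of those of senescent replicates 1, 2 and 3. In regions with neither motif it was present in 19.3% on average (SD 3.51, n = 6). The AP-1 peaks thus held it more often, by 14.3 points (SD 4.87, higher in 6 of 6 libraries, exact p = 0.031).
Promoter peaks differ in base composition, so the comparison was repeated, after the values were seen, on peaks over 1000 bp from a start site. CACATG was then present in 32.4, 30.7 and 26.7% of the control and 48.1, 36.8 and 41.5% of the senescent AP-1 peaks. Windows of the same size 2000 bp beside them held it in 16.9% on average, and these windows did not follow the groups (17.4% ± 0.553 in control and 16.5% ± 1.01 in senescent libraries, exact permutation p = 0.3). Against distal peaks with neither motif (27.9% ± 5.57, SD, n = 6) the AP-1 peaks were higher by 8.10 points (SD 2.99, 6 of 6 libraries, exact p = 0.031, 0.0405 over the 35 comparisons of classes and 0.0804 over the 18 motifs searched in distal peaks). Distal E-box peaks held it in 27.96% ± 1.35.

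The groups did not overlap in this variant. In distal AP-1 peaks it averaged 29.9% ± 2.91 over the control and 42.1% ± 5.71 over the senescent libraries (SD, n = 3), with every senescent library above every control library. The difference of 12.2 points had an exact permutation p of 0.1, the smallest possible, and 0.192 after adjustment over the 23 values compared. Over 11 other settings, each library left out among them, it lay between 7.59 points (without control replicate 3) and 19.1 points (peaks above the median score). Distal peaks with neither motif moved the same way, from 23.7% ± 3.54 to 32.2% ± 3.33, and the shift in AP-1 peaks was not shown to be larger (3.73 points, exact permutation p = 0.3). E-box peaks overlapped between the groups, with 27.7% ± 1.53 in control and 28.2% ± 1.42 in senescent libraries (exact permutation p = 0.7), and the shift in AP-1 peaks exceeded theirs by 11.7 points (exact permutation p = 0.1, without overlap). Among region sets, 129 of 295 senescent-only AP-1 regions (43.7%, 95% Wilson interval 38.2 to 49.4), 42 of 180 control-only regions (23.3%, 17.8 to 30.0) and 38 of the 94 regions called in all 6 libraries (40.4%, 31.1 to 50.5) held CACATG within 100 bp of the centre. Fused AP-1 and CACATG sites were found in 43 AP-1 regions outside chromosome 18, of which 12 were senescent-only, 9 control-only and 3 called in all 6 (27.9, 20.9 and 6.98%, against 25.9, 15.8 and 8.27% of all AP-1 regions).

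**Figure D3:**
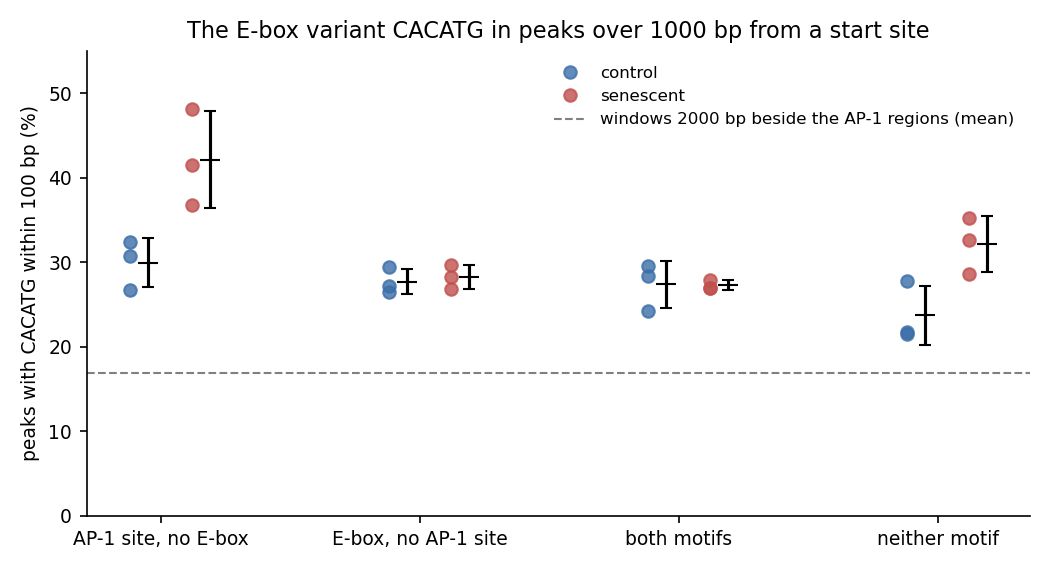
Each point is the share of 1 library's distal peaks (%, peaks over 1000 bp from a start site) with CACATG within 100 bp of the centre, for 4 motif classes, and black marks are group means ± SD (n = 3). The senescent points of the AP-1 class (36.8 to 48.1%) lie above its control points (26.7 to 32.4%), peaks with neither motif split likewise (28.6 to 35.2% against 21.5 to 27.8%), and the classes with an E-box overlap. The dashed line is the mean of windows beside the AP-1 peaks (16.9%).

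The position of CACATG was compared next. In peaks with a single copy its median distance from the peak centre was 0.405 of the way to the edge in AP-1 peaks and 0.412 in peaks with neither motif, and within AP-1 peaks its difference from the AP-1 site was smaller than the spread (-0.0152, SD 0.0589, exact p = 0.625). Across 500 bp to each side of the centre, CACATG reached 6.95 copies per 100 AP-1 regions and 25 bp next to the centre, against 2.20 and 2.55 in the outermost bins.

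**Figure D4:**
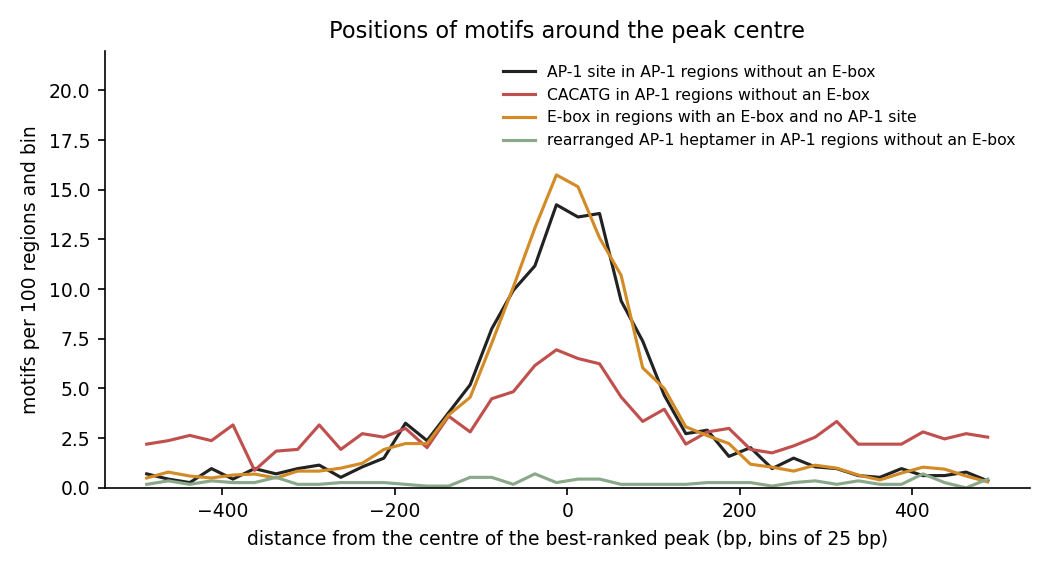
Motif positions around the centre of the best-ranked peak (horizontal axis, bp, bins of 25 bp), as motifs per 100 regions and bin (vertical axis). AP-1 sites of the AP-1 regions reach 14.2 and E-boxes of E-box regions 15.8 next to the centre, which the choice of the regions favours, and CACATG, which it did not use, reaches 6.95, while the rearranged heptamer ATGCCAT or ATGGCAT stays at or below 0.704.

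A panel of 18 motifs, each searched on both strands within 100 bp of the centre, was set against regions with neither motif. Besides the motifs spelled out here, it held the E-box variant CAGCTG, the cyclic AMP response element TGACGTCA, the C/EBP site TTGCNNAA, the STAT site TTCNNNGAA, and by name the NFI, CTCF and SRF motifs. Across all peaks 13 motifs differed in the same direction in 6 of 6 libraries, 8 more frequent in AP-1 peaks and 5 less frequent (adjusted exact p = 0.0433 for each). The 8 included ATGCCAT or ATGGCAT, a heptamer put in only as a rearrangement of the AP-1 site (2.85 against 1.80%). The count was 0 with equal list lengths, with peaks above the median score, with a 50 bp window, with the surroundings subtracted and with AP-1 sites within 100 bp. With any library left out it was 0 by construction, since the smallest exact p over 5 libraries is 0.0625. Among the 13 were GGGCGG of the SP and KLF factors (10.7 against 31.99%), CCAAT followed by 2 bases as in NF-Y sites (9.75 against 21.6%) and CCGGAAG of the ETS factors (2.54 against 6.24%), all promoter motifs that were less frequent in AP-1 peaks.
In distal peaks alone 7 motifs kept 1 direction in 6 of 6 libraries, 3 more frequent in AP-1 peaks, and 0 passed adjustment (smallest adjusted exact p = 0.0804, with 7 at an unadjusted p of 0.031). Besides CACATG, the more frequent ones were the E-box variant CACGTT (11.9 against 9.09%) and the glucocorticoid receptor motif (0.942 against 0.423%). The receptor motif was rare, in 0.556 to 1.42% of the distal AP-1 peaks of a library. That is a few peaks in each list, and the lists share regions. GGAATG, the site of the TEAD factors of the YAP pathway, was 1.97 points less frequent in distal AP-1 peaks (20.3 against 22.2%), but more frequent across all peaks (19.3 against 16.9%). TGTGGT, the site of the RUNX factors of bone and fibroblast differentiation, differed by less than the spread in distal peaks (23.9 against 24.3%, exact p = 0.719), and was more frequent across all peaks (22.7 against 17.7%).

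Some of these motifs stood apart between the groups in distal AP-1 peaks, although with 3 against 3 libraries none could pass (smallest adjusted exact p = 0.2). RUNX sites were present in 25.6, 29.8 and 24.9% of the control and 22.9, 19.1 and 21.3% of the senescent AP-1 peaks, so that the senescent libraries were lower by 5.68 points without overlap. Among region sets, 55 of 180 control-only (30.6%) and 50 of 295 senescent-only AP-1 regions (16.9%) held one. A loose NF-kB pattern was present in 19.6, 16.2 and 21.0% of the control and 27.8, 27.7 and 27.0% of the senescent AP-1 peaks. It was 8.59 points higher in the latter without overlap. Windows 2000 bp beside the AP-1 peaks held it in 20.7% on average, and distal peaks with neither motif in 24.5%. Over the 6 libraries the AP-1 peaks exceeded the windows by 2.57 points (exact sign-change p = 0.1875). That pattern is rich in G and C, and the median GC content of AP-1 peaks was also 3.00 points higher in senescent libraries (50.8% ± 0.289 against 47.8% ± 0.764, exact permutation p = 0.1). The part of GC content in the NF-kB difference between the groups was not tested.

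The best-ranked AP-1 regions called in all 6 libraries were each in the top 13% of every list. Nearest genes are given by distance alone and are not shown to be targets. The first, at chr8:37049242-37049822, lay between genes 55906 bp downstream of the start of AI429214, with percent ranks of 2.77, 7.51 and 2.85 in control and 2.80, 1.61 and 2.41 in senescent libraries. The next lay in an intron of Slc24a3, a sodium and calcium exchanger, with ranks of 3.69, 2.40 and 0.90 in control and 6.95, 2.76 and 8.87 in senescent libraries. A region 159 bp upstream of a start site of Klf10, a zinc finger factor induced by TGF-beta, had ranks of 7.89, 8.90 and 1.505 in control and 3.20, 1.98 and 2.87 in senescent libraries. These values overlapped between the groups in all 3 regions. The remaining 3 were a promoter region 78 bp upstream of Osbpl2, an oxysterol-binding protein (mean percent rank 5.98), a distal region nearest to Akr1e1, an aldo-keto reductase (6.10), and a region 4336 bp upstream of Taf12, a subunit of the general factor TFIID (6.10). CACATG was present in the regions of AI429214, Slc24a3, Klf10 and Taf12 and absent from those of Osbpl2 and Akr1e1.

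Of the regions called in all 3 senescent and 0 control libraries, the best-ranked lay in an intron of Gm11077, with percent ranks of 4.94, 2.80 and 2.99. It held 3 copies of CACATG. The next, 41393 bp upstream of Lpin2, a phosphatase of lipid synthesis, had ranks of 7.74, 1.48 and 4.997 and also held 3 copies. The region of the fused site, 10476 bp upstream of Rab3gap2, a regulator of the small GTPase RAB3, had ranks of 5.78, 3.498 and 5.64. All 3 stood in the top 8% of each senescent list and in 0 control lists, which is how they were selected. They were followed by regions 974 bp downstream of a start of Il15ra, the interleukin 15 receptor (mean percent rank 7.52), 206 bp upstream of a start of Prss46, a serine protease (8.26), and 2292 bp upstream of Mapk13, a p38 kinase (9.55). CACATG was present in 5 of these 6 regions, and the exception was Prss46. Of all AP-1 regions 43.7% held it, and most of the best-ranked regions called in all 6 libraries did too.

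Of the regions called in all 3 control and 0 senescent libraries, the best-ranked lay 332171 bp from the start of Klf5, a zinc finger factor of proliferating cells, with percent ranks of 12.72, 16.77 and 4.01 in control replicates 1, 2 and 3. A region 10271 bp upstream of Acta2, the smooth muscle actin of myofibroblasts, had ranks of 21.05, 19.57 and 10.59, with its AP-1 site 1.5 bp from the peak centre. The others lay nearest to Prps1l1, a nucleotide synthesis enzyme (mean percent rank 19.3), Degs1, a ceramide desaturase (20.9), Ttyh2, a membrane channel protein (24.5), and Dlc1, a suppressor of tumour growth (29.2). In each of the 6 except Ttyh2 the long list of control replicate 3 gave a clearly better rank than the other control lists. CACATG was present in 2 of these 6, near Prps1l1 and Degs1.

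**Figure D5:**
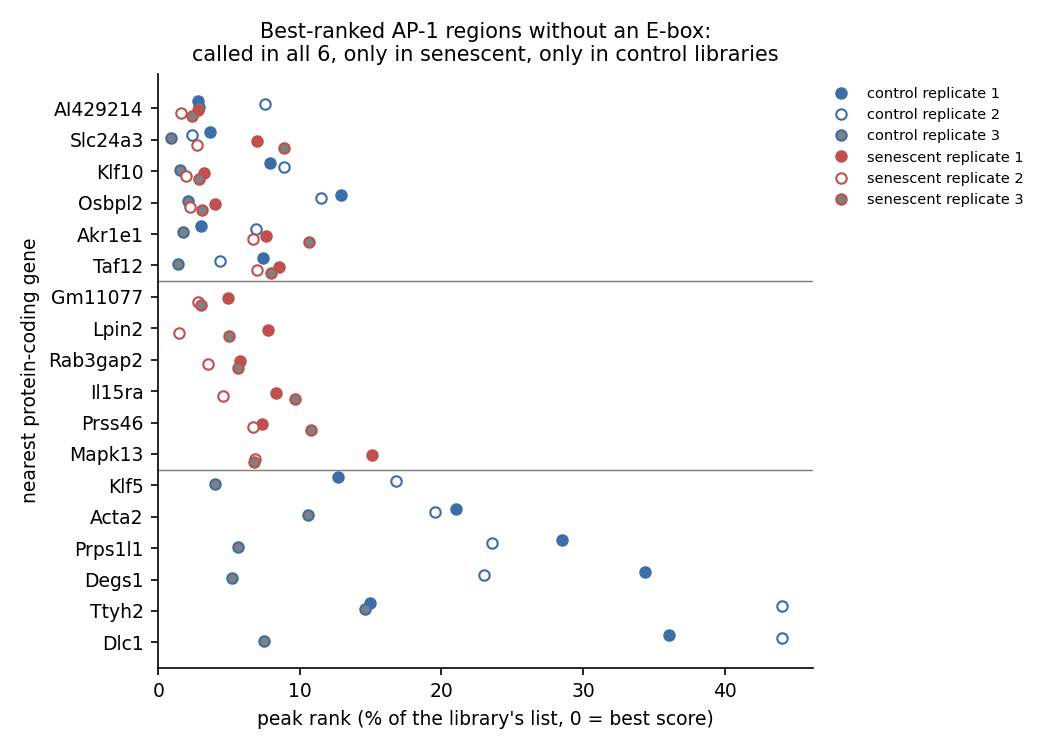
Percent rank (horizontal axis, % of the library's list, 0 is the best score) of 18 AP-1 regions, named by the nearest gene, with 1 point for each library that called the region. The top block was called in all 6 libraries, the middle block in the 3 senescent and the bottom block in the 3 control libraries, with ranks of 1.48 to 15.1% in the middle block and 4.01 to 44.1% in the bottom block.

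AP-1 regions clustered at some genes. A gene was nearest to 1 or more AP-1 regions in 1006 of 21864 protein-coding genes (4.6%) and to 1 or more recurrent regions of any class in 4910 (22.5%), and 903 of the 1006 had a single AP-1 region. Most belonged to Lmna and Thbs1 with 5 each, followed by Dlc1, Ubash3b and Wwp2 with 4.
Lmna encodes lamins A and C of the nuclear envelope. Its 5 AP-1 regions lay between 1678 bp upstream and 4674 bp downstream of start sites of the gene. They were called in 2 or 3 libraries each, in all 5 cases with senescent replicate 2, and their mean percent ranks were 37.9 to 61.2. No Lmna region was called in control replicates 1 or 2.
Thbs1 encodes thrombospondin 1, a matrix protein that activates TGF-beta. A 2589 bp region 928 bp upstream of its start was called in all 6 libraries, at percent ranks of 87.60, 14.99 and 15.57 in control and 28.45, 7.31 and 26.82 in senescent libraries. Regions within the gene were called in 4 to 6 libraries, and another, 308983 bp upstream, in control replicates 2 and 3 alone. At this gene the calls did not split by group.
Dlc1 and Wwp2, a ubiquitin ligase, leaned to control libraries: 2 of the 4 Dlc1 regions and 3 of the 4 Wwp2 regions were called in 2 or 3 control and 0 senescent libraries. The 4 regions nearest to Ubash3b, a tyrosine phosphatase, lay 322309 to 428515 bp upstream of its start, of which 2 were called in all 6 libraries and 1 in all 3 senescent and 0 control libraries.

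Gene lists of AP-1 and clock biology, senescence and fibroblast function were then examined, with the share of all protein-coding genes nearest to an AP-1 region (4.6%) as background. Lists of genes known to be active in fibroblasts have more recurrent regions of any class as well, so their shares are descriptions. Beside the counts of senescent-only and control-only regions in a list stand the shares over all AP-1 regions, 25.9% and 15.8%, and no list was tested against them.
Of the 21 AP-1 subunit genes, 3 were nearest to an AP-1 region. The region 95 bp upstream of Fosl2, a FOS family subunit, was called in control replicate 3 and senescent replicate 2 at percent ranks of 24.98 and 13.51, and those of Atf7 and Mafk had mean ranks of 59.0 and 89.0. Of 18 clock genes, 16 were nearest to a recurrent region and 2, Nr1d1 and Nr1d2, to an AP-1 region. These genes encode the REV-ERB repressors of the clock. The Nr1d1 region lay in an intron of the neighbouring Thra, and both were called in control replicate 3 and senescent replicate 2 alone (mean ranks 38.4 and 87.6).

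The actin cytoskeleton list had 12 of 35 genes with an AP-1 region (34.3%). Its 13 regions included 4 control-only and 1 senescent-only. After Acta2, described above, the best-ranked was an intronic region of Tpm1, a tropomyosin, called in control replicates 2 and 3 at percent ranks of 28.61 and 11.80. The Palld region was called in 5 libraries at ranks of 19.89 to 42.78 and the Actb region in 5 at 24.04 to 70.83. Collagens and matrix proteins had 11 of 45 genes (24.4%) with 19 regions, 3 senescent-only, 6 control-only and 3 called in all 6 libraries. After Thbs1, described above, the Col5a1 region was called in all 3 senescent and 0 control libraries at ranks of 48.71, 18.54 and 63.49, and the Col5a2 region in 1 library of each group. Integrins and focal adhesions had 8 of 29 genes (27.6%), with 4 senescent-only and 2 control-only among 9 regions. The Itga1 region was called in the 3 control libraries alone (mean percent rank 35.8), the Parva region in the 3 senescent libraries alone (39.9), the Lpp region in 2 senescent libraries (40.1) and the Vcl region in all 6 (40.01). Of 34 matrix proteases 4 had one (11.8%): the Adamts17 region was called in all 6 libraries (33.1), the Adamts16 and Mmp14 regions in 2 senescent libraries each (42.4 and 83.7) and the Adam12 region in 5 (65.4).

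Of the 54 secreted factors of senescent cells 10 were nearest to an AP-1 region (18.5%), with 4 senescent-only and 1 control-only among 12 regions. The best-ranked lay 67719 bp from the start of Csf2, the growth factor GM-CSF, and was called in all 6 libraries at percent ranks of 10.40, 24.31 and 10.08 in control and 3.77, 1.70 and 5.55 in senescent libraries. Every senescent rank was better than every control rank at this region. The Il6 region, 241 bp upstream of the start of this interleukin, was called in control replicate 3 and senescent replicate 2 at ranks of 28.65 and 43.21, as was the Timp2 region at 45.52 and 22.51.
CDK inhibitors and the p53 pathway had 5 of 21 genes (23.8%, and 15 of 21 with a recurrent region of any class), with 2 senescent-only and 0 control-only among 6 regions. The region in Cdkn1a, the gene of p21, lay 1571 bp downstream of a start site and was called in senescent replicates 2 and 3 at percent ranks of 19.41 and 33.21 and in control replicate 3 at 83.75. Btg2 had a region called in the 3 senescent libraries alone (mean rank 58.6), Gadd45a one in senescent replicates 2 and 3 (50.2) and Gadd45g one in 1 library of each group (44.6). Glucocorticoid-induced genes had 7 of 21 (33.3%, while 16 of 21 were nearest to a recurrent region of any class), with 4 senescent-only and 0 control-only among 8 regions, and cells of both groups had received dexamethasone. The region of Ddit4, an inhibitor of mTOR signalling, was called in the 3 senescent libraries alone at ranks of 26.39, 6.82 and 17.69, and that of Cebpb in 2 of them. The Mt2 region was called in all 6 libraries (mean 26.6) and the Angptl4 region in 4 (42.5).

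The TGF-beta and BMP pathway had 9 of 42 genes (21.4%, and 27 of 42 with a recurrent region of any class), with 2 senescent-only and 0 control-only among 11 regions. An intronic region of Smurf1, a ubiquitin ligase of this pathway, held 3 heptamers and was called in 5 libraries at percent ranks of 4.99 to 17.14. The regions nearest to Tgif1, Grem1 and Tgfb3 had mean ranks of 32.7, 38.0 and 38.0, and each lay in an intron of another gene (Dlgap1, Fmn1 and Ttll5). The TEAD and YAP list had 5 of 20 (25%): the Ccn2 region was called in all 6 libraries at ranks of 6.63 to 31.85, the Amotl2 region in 2 senescent libraries (mean 40.3), and the Tead1 and Wwtr1 regions in control replicate 3 and 2 senescent libraries (56.6 and 58.9). MAPK signalling had 3 of 43 (6.98%), and its best-ranked region, 545150 bp from the start of Ets1, was called in control replicates 2 and 3 alone (mean 21.4), followed by Spry2 (64.1) and Rasa1 (66.3). Of the 19 BCL2 family genes 1, Mcl1, had AP-1 regions, the better of which was called in control replicate 3 and senescent replicate 2 (mean 35.8). Of 12 genes that the study named for gained or lost binding 2 had one, Kdm6b in senescent replicates 2 and 3 (mean 69.1) and Lif, where a region was called in the 3 senescent libraries alone at ranks of 83.95, 57.16 and 88.92. The Lif and Kdm6b regions thus stood in the lower part of each list that called them.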

How the data were processed

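BMAL1-ChIP-seq libraries from 3 control and 3 senescent MAF samples were used. The authors mapped reads to mm10 with the Burrows-Wheeler Aligner, removed duplicates with Picard and called peaks per library with MACS2 at a false discovery rate of 1% or less. Scores in the deposited lists start at 2.02 to 2.12, were taken to be −log10 q-values as MACS2 writes them, and served only to rank peaks within a list. Depth cannot be computed from peak lists. The MACS2 version is not given in the sources used here.

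Peaks were merged and searched on the GRCm38 sequence with Python 3.11.15 (numpy 2.4.6, pandas 2.3.3, scipy 1.17.1, pysam 0.24.0), and the functions were tested on simulated data. Start sites came from protein-coding transcripts of the GENCODE M21 basic set (21864 genes). Each library's value of a region is that of its best-ranked peak. Groups came from the sample titles. Exact tests over libraries were adjusted by Benjamini-Hochberg, and 95% Wilson intervals cover counting error only.

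The regions, the gene lists and the tests were chosen with earlier results of these data known. Named regions outside chromosome 18 were the 6 of best mean percent rank among those called in all 6 libraries, in all 3 senescent and 0 control, and in all 3 control and 0 senescent libraries, and the 3 with most heptamers. Named genes were the nearest to these, the 5 with most regions, and up to 4 per list by rank, except items that are not reported here. Same-numbered libraries did not deviate together (correlations 0.0755, -0.0507 and -0.0177 over 1106 regions), so numbers were not treated as pairs.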

Additional observations from a re-analysis of the deposited data

How the results depend on the processing

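The 10 planned results were recomputed under stricter scores, equal list lengths, other merging, chromosomes, recurrence, motif windows and left-out libraries. The difference in rank between AP-1 regions and E-box regions kept its direction throughout (18.2 to 20.3 points without single libraries), as did that in promoter share (-33.4 to -30.1). With 5 libraries the smallest exact p is 0.0625, so both miss the threshold there by construction. The share of AP-1 regions among recurrent regions changed sign with peaks above the median score (-0.374 points), with equal list lengths (-0.974, exact permutation p = 0.1) and without single libraries (-0.433 to 1.78), and the share among single-library regions with equal list lengths (-0.0149; 3.20 to 5.39 without single libraries). The rank difference between groups changed sign with peaks above the median score (-1.71) and without control replicate 3 (-0.571; up to 5.97 without others). In the main setting the exact permutation p of these 3 differences was 0.6, 0.3 and 0.6. None could have passed the threshold of 0.05, since the smallest p of 3 against 3 libraries is 0.1.

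The distance of the AP-1 site against the rearranged heptamer changed sign with peaks above the median score (0.0421), equal list lengths (0.0385), 3 or more libraries (0.0145) and without single libraries (-0.0530 to 0.0497), and was -20.8 bp in bp (exact p = 0.031). The A and T flank difference was -0.367 points with peaks above the median score, and 12.0 for sites without T before or A after (chosen after seeing the data). The count of 13 panel motifs became 0 with peaks above the median score, equal list lengths and AP-1 sites within 100 bp. It was also 0 with a 50 bp window, shares minus the surroundings and distal peaks (chosen after seeing the data). With a smallest p of 0.031, 12 of 18 motifs must agree in every library before any passes. With 5 libraries (0 to 0) the count is 0 by construction, since the smallest exact p is 0.0625. Senescent-only regions numbered 121 above the median score, 129 with equal list lengths, 113 with 3 or more libraries and 136 to 437 without single libraries. Control-only regions numbered 76 above the median score, 133 with equal list lengths, 43 with 3 or more libraries and 43 to 244 without single libraries. Fewer peaks or samples entered in these settings. Except for 3 or more libraries, the counts over all recurrent regions were not computed there.

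The replicate block was a sign test over 3 pairs of same-numbered libraries. By construction it gave the same differences of 0.264 and 3.83 points of share and 2.84 points of rank. Its smallest p is 0.25, so it could not let any of them pass. The CACATG difference between groups in distal AP-1 peaks lay between 7.59 and 19.1 points under 11 alternatives chosen after seeing the data. Depth was unknown, and a longer list can come from deeper sequencing as well as from more binding.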
